A study of Mus musculus with 9 samples.

Results

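Expression of 7 genes that convert, carry or sense thyroid hormone was examined in mouse neuroblastoma tumors. They were the deiodinases Dio1, Dio2 and Dio3, the hormone transporters Slc16a10 and Slco1c1, and the nuclear receptors Thra and Thrb. The genes were taken by symbol from a table of 54429 symbols. The set was chosen by the counts of Dio2, which were already known to be higher in both treated groups than in vehicle, so all differences of Dio2 are given as a description with no test. Dio2 ranged from 19.1 to 23.2 CPM (counts scaled to a common library size) in vehicle tumors, from 44.4 to 76.1 CPM after R788 + anti-PDL1, and from 91.8 to 155 CPM after Rad + R788 + anti-PDL1. The other deiodinases stayed at or under 2.37 CPM in every library.

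The data were RNA-seq counts of 9 whole tumors, 3 per group. NB9464 is a MYCN-amplified neuroblastoma line of the mouse, and 4000000 of its cells had been placed under the skin of a wild-type C57BL/6 host and grown to 250 mm3 before treatment. Mice received Vehicle alone, or R788 + anti-PDL1, or the same drugs with radiation (Rad + R788 + anti-PDL1, below also irradiated), where R788 at 50 mg/kg inhibits the kinase Syk, anti-PDL1 is a checkpoint-blocking antibody and Rad is 10 Gy. The series text lists 4 doses between day 28 and day 37 without saying which agents they cover. The study's methods describe the hosts as young mice, some weeks old. Radiation alone and each drug alone were not analysed here. R788 and anti-PDL1 therefore cannot be told apart, and radiation was seen only on top of both drugs. All groups carry tumors of a single implanted line in an immunocompetent host. The labels do not say whether libraries of a group came from separate mice, so the p-values below measure the spread between these libraries, which may be technical.

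Thyroid hormone leaves the thyroid mostly as thyroxine, a precursor with little activity at the receptors. Dio2 removes an outer-ring iodine inside the cell and makes the active hormone T3, Dio3 removes an inner-ring iodine and inactivates both forms, and Dio1 can do either. All are selenoproteins, whose selenocysteine is inserted at a recoded stop codon. The hormone enters cells through transporters such as Slc16a10 (MCT10) and Slco1c1 (OATP1C1), and T3 acts through the receptors encoded by Thra and Thrb, which bind DNA with retinoid X receptors. Dio2 is best known from brown fat, pituitary, glia and muscle, where cyclic AMP induces its transcription, whereas Dio3 is an imprinted gene that is active in fetal tissues and in some tumors.

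Dio2 (ENSMUSG00000007682.6) lies on chromosome 12, 90724552 to 90738438, on the minus strand of GRCm38, with 5815 exonic bases in 2 exon blocks, of which 798 are coding. Dio3 (ENSMUSG00000075707.5) lies on the same chromosome, 110279068 to 110281097, on the plus strand, and is a single-exon gene of 2030 bases. The RefSeq promoter windows (GRCm38.p6) of both genes are shown because these deiodinases act in opposite directions on the hormone and because only Dio2 was well expressed. Capitals mark the cyclic AMP response element TGACGTCA and the TATA box letters TATAAA, searched on both strands. The Dio2 window is chr12:90738989-90739288 (minus strand) and lies just upstream of the GENCODE gene model, and the Dio3 window is chr12:110278980-110279279 (plus strand).
Dio2: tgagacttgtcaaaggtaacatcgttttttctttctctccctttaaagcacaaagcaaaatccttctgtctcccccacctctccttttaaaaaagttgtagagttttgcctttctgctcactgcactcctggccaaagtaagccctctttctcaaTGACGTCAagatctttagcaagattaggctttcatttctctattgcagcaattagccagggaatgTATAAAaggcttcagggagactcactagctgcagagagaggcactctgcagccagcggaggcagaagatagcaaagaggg
Dio3: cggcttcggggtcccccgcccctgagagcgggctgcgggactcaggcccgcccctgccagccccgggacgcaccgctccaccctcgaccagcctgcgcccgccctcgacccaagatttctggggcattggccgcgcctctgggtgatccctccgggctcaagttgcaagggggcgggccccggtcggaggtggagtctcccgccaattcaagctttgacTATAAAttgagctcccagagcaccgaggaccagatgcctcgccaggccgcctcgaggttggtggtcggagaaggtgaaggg
In the Dio2 window TGACGTCA began 95 bases before the RefSeq start and TATAAA 30 bases before it. In the Dio3 window TATAAA began 31 bases before the start, and TGACGTCA was not found. The GC content was 44.7% for Dio2 and 69.0% for Dio3. Of 32851 mouse promoter windows of the same length, 1.79% held TGACGTCA and 13.6% held TATAAA. TGACGTCA contains the shorter letters TGACG, which 20.8% of windows held. A window was given for 6 of the 7 members, all but Thra. Among the other members, 1 of 2 Thrb windows held TGACG and the other TATAAA, the Slco1c1 window held TATAAA after its start, and neither the Dio1 nor the Slc16a10 window held any of these letters. The letters AGGTCA repeated in the same direction after 4 bases, the arrangement best known for thyroid hormone receptors, were in 0.0152% of all windows and in none of the member windows.

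Total counts ranged from 18276683 to 23397886 per library, and 15931 genes passed the filter on low counts. CPM values here use TMM-normalized library sizes. The upper limit behind a count of 0 was taken as 3 counts, or 0.115 to 0.221 CPM, and covers counting error only. Rad + R788 + anti-PDL1 replicate 1 stood apart: across genes, its log2 CPM gave r between 0.865 and 0.907 with the others, whereas the lowest r among the other 8 was 0.937. It also had the fewest genes with a count, 18263 against 19732 to 22129. Results that use the irradiated group are therefore given with and without it where it matters. Of 10 neuroblast markers, Mycn (93.3 to 250 CPM) and Hand2 (325 to 867 CPM) were high in every library. Th, the rate-limiting enzyme of catecholamine synthesis, was at 0 in all 9 libraries, and Phox2a, Dbh and Chga did not exceed 0.221 CPM, so these noradrenergic markers of the labelled cell type were at or near 0. The extraction text in the labels names macrophages as the RNA source while the tissue is given as whole tumor.

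Dio2 was the member with the largest differences in absolute level. Its values were 19.9, 19.1 and 23.2 CPM in vehicle replicates 1 to 3, 76.1, 44.4 and 68.7 CPM after R788 + anti-PDL1, and 91.8, 155 and 144 CPM after Rad + R788 + anti-PDL1. The 3 groups did not overlap, and even the irradiated library that stood apart lay above every unirradiated one. The means were 20.7 ± 2.15, 63.1 ± 16.6 and 130.0 ± 33.7 CPM (SD, n = 3), resting on 1210, 4563 and 7445 counts. R788 + anti-PDL1 tumors were thus 3.04-fold above vehicle, a log2 fold change of 1.60 ± 0.27 (SE). Rad + R788 + anti-PDL1 tumors were 6.27-fold above vehicle, a log2 fold change of 2.65 ± 0.28, or 2.88 ± 0.21 without replicate 1. In bulk tumors, more cells that express a gene and more RNA per cell cannot be told apart.

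**Figure D1:**
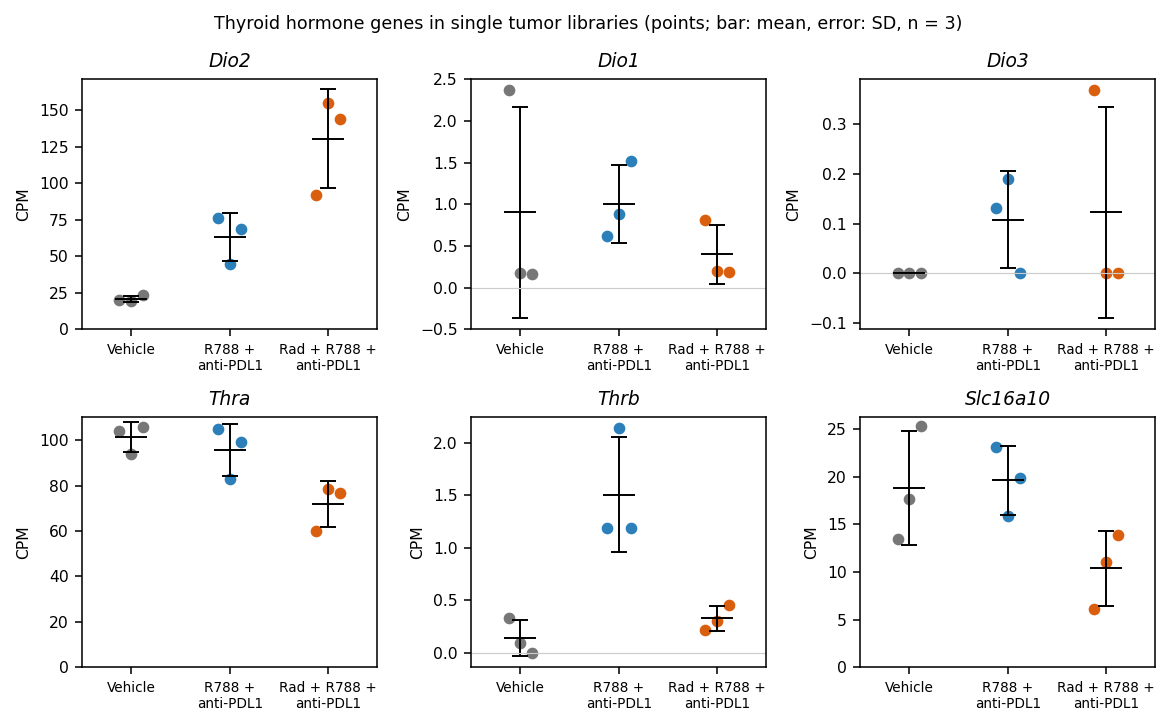
CPM (vertical axes, linear, a separate scale per gene) of 6 thyroid hormone genes in the 3 groups, with a point per library, the mean as a bar and the SD as error (n = 3). Dio2 is lowest in vehicle and highest in irradiated tumors with no overlap between groups, Thrb is highest after R788 + anti-PDL1, and Dio1 and Dio3 stay near 0. Slco1c1 was at 0 in all libraries and is not drawn.

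The treated groups compared with each other hold the same libraries by which Dio2 was chosen, so this difference too is a description. Dio2 was 2.06-fold higher with radiation, a log2 fold change of 1.05 ± 0.27, and all 3 irradiated libraries exceeded all 3 others. Without irradiated replicate 1 the log2 fold change was 1.25 ± 0.21. In this comparison 0.00628% of all genes were called and groups did not overlap at 27.4% of genes. Of the members, Thra and Slc16a10 did not overlap here and were lower in irradiated tumors, while Dio1 overlapped. Dio2, higher in irradiated tumors, and Thrb, lower in them, did not overlap either. Dio1, Dio2 and Thrb are left out of the comparison with all genes. The set was chosen by Dio2, and Thrb passed the low-count filter only through its high group. Dio1 passed that filter only with its R788 + anti-PDL1 libraries.

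Dio1, the deiodinase of liver, kidney and thyroid, was low and erratic. Its counts were 43, 4 and 3 in vehicle tumors, 14, 23 and 37 after R788 + anti-PDL1, and 11, 4 and 4 after Rad + R788 + anti-PDL1. The groups overlapped, since vehicle replicate 1 alone lay above every other library. Dio1 passed the low-count filter only with its R788 + anti-PDL1 libraries, the group of highest mean, so its differences are given with no p. Against vehicle, the log2 fold change was 0.16 ± 1.02 for R788 + anti-PDL1 tumors and -1.22 ± 1.09 for irradiated tumors. The sign of each depended on single libraries: without vehicle replicate 1, for example, the irradiated tumors were higher by 1.13.

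Dio3, the inactivating enzyme, was close to absent and did not pass the filter. It had 0 counts in all 3 vehicle tumors, 3, 5 and 0 after R788 + anti-PDL1, and 5, 0 and 0 after Rad + R788 + anti-PDL1. No difference between groups was detectable at this depth. Dio3 sits at the far end of the Dlk1-Dio3 imprinted cluster, whose other genes were measurable. Of 5 such genes tested none was called, and the median log2 fold change was 1.23 after R788 + anti-PDL1 and 0.35 after Rad + R788 + anti-PDL1 against vehicle, beside -0.02 and 0.05 for all genes. Rtl1, a retrotransposon-derived placental gene, had the most counts, at 16.5 to 92.0 CPM. The noncoding RNA Rian had 3.10 to 16.3 CPM in vehicle tumors and 15.9 to 36.8 CPM after R788 + anti-PDL1 (log2 fold change 1.71 ± 0.68, adjusted p = 0.364).

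Scaled to exon length, Dio2 moved up the ranking of the tumor transcriptome. Its mean level was 3.57, 10.8 and 22.4 CPM per kb in the vehicle, R788 + anti-PDL1 and irradiated groups. These values lay at percentiles 45.4, 72.0 and 84.0 of 15821 genes with a length. Per kb, Dio2 exceeded Dio1 by 8.20, 20.9 and 133 times in the same order. Single libraries set these ratios: without vehicle replicate 1, which held 43 of 50 Dio1 counts, the vehicle ratio was 41.1 and lay above that of R788 + anti-PDL1, and without irradiated replicate 1 the irradiated ratio was 263. Against Dio3 the ratio per kb was at least 141 in vehicle tumors, taking the floor of 3 counts over the group, and 199 and 520 in the treated groups, where Dio3 had 8 and 5 counts in all, the 5 from irradiated replicate 1. Without R788 + anti-PDL1 replicate 2 the ratio in that group was 396, on 3 Dio3 counts, and without replicate 3 it was 126. Dio2 was therefore the main deiodinase transcript in every group by level per length.

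**Figure D2:**
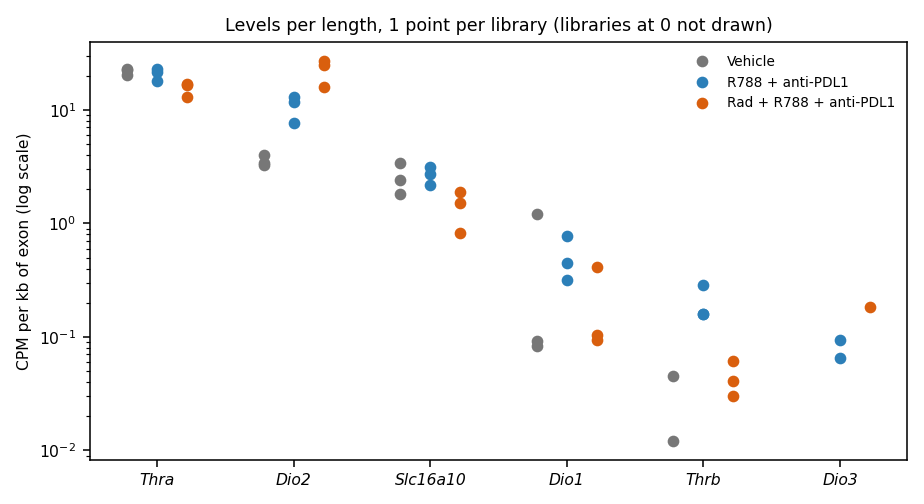
CPM per kb of exon (vertical axis, log scale) for 6 thyroid hormone genes, with a point per library and a color per group; libraries at 0 are not drawn. Thra and Dio2 lie highest, and in the irradiated libraries Dio2 (mean 22.4 CPM per kb) comes above Thra (15.6 CPM per kb), whereas in vehicle libraries Dio2 (3.57) lies below Thra (21.9).

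Slc16a10, a facilitated transporter of thyroid hormone and aromatic amino acids, was the only measurable transporter of the 2 members. Its values were 13.5, 17.7 and 25.3 CPM in vehicle tumors, 23.1, 15.9 and 19.9 CPM after R788 + anti-PDL1, and 6.12, 11.1 and 13.9 CPM after Rad + R788 + anti-PDL1. The irradiated libraries lay below all R788 + anti-PDL1 libraries and overlapped vehicle at its lowest library. Against vehicle the log2 fold change was 0.06 ± 0.34 with the drugs alone (adjusted p = 0.974). It was -0.86 ± 0.35 in irradiated tumors against vehicle (adjusted p = 0.354) and -0.92 ± 0.35 between the treated groups (adjusted p = 0.24). The values without irradiated replicate 1, the lowest library, were -0.56 ± 0.28 and -0.64 ± 0.28. Slco1c1, a thyroxine transporter of the blood-brain barrier, had 0 counts in all 9 libraries.

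Of 11 other thyroid hormone transporters, 4 were tested and none was called in any comparison. Slc7a5 and Slc3a2, which together form the amino acid transporter LAT1, had the most counts, at 112 to 213 and 144 to 223 CPM. Slc7a5 had a log2 fold change of 0.29 ± 0.20 after R788 + anti-PDL1 (adjusted p = 0.667) and -0.15 ± 0.20 after Rad + R788 + anti-PDL1 (adjusted p = 0.717), or 0.06 without irradiated replicate 1. Slco2b1, an organic anion transporter, had log2 fold changes of 1.08 ± 0.76 and 0.62 ± 0.76. The second of these rested on irradiated replicate 3, at 15.7 CPM against 1.77 and 2.49 CPM in replicates 1 and 2, without which the irradiated mean was 2.13 CPM and the vehicle mean 4.36 CPM. The carrier proteins Ttr and Serpina7 and the cytosolic T3-binding protein Crym were at 0 throughout.

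Thra, which encodes the receptor TRα1 and a splice form that does not bind T3, was the dominant receptor gene. Its values were 104, 93.7 and 106 CPM in vehicle tumors, 105, 82.9 and 99.4 CPM after R788 + anti-PDL1, and 60.2, 78.5 and 76.8 CPM after Rad + R788 + anti-PDL1. The irradiated libraries lay below both other groups, which overlapped each other. The log2 fold change was -0.08 ± 0.18 for R788 + anti-PDL1 (adjusted p = 0.911) and -0.50 ± 0.18 for Rad + R788 + anti-PDL1 (unadjusted p = 0.0225, adjusted p = 0.328) against vehicle. Between the treated groups it was -0.41 ± 0.18 (adjusted p = 0.269). Without irradiated replicate 1 the differences from vehicle and from R788 + anti-PDL1 were -0.35 ± 0.13 and -0.29 ± 0.13. Thra shares 263 exonic bases with Nr1d1 on the opposite strand, and because no source used here says whether reads keep their strand, reads there cannot be assigned with certainty. Nr1d1 itself, a circadian repressor, had log2 fold changes of 0.39 and -0.05 against vehicle, the second 0.11 without irradiated replicate 1, and was not called.

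Thrb, the receptor of pituitary feedback and liver, was scarce in every group, though less so after R788 + anti-PDL1. Its counts were 6, 2 and 0 in vehicle tumors, 27, 56 and 29 after R788 + anti-PDL1, and 3, 6 and 10 after Rad + R788 + anti-PDL1. All 3 R788 + anti-PDL1 libraries lay above all 6 others. Thrb passed the low-count filter only through that group, so its place among the tested genes depended on the same high values and its differences from that group are given with no p. The log2 fold change against vehicle was 3.39 ± 0.89 after R788 + anti-PDL1 and 1.23 ± 0.91 after Rad + R788 + anti-PDL1, and it was -2.16 ± 0.82 between the treated groups. Per kb, Thra exceeded Thrb by 1180 times in vehicle, 99.8 times in R788 + anti-PDL1 and 341 times in Rad + R788 + anti-PDL1 tumors, with 8, 112 and 19 Thrb counts behind these ratios. The vehicle ratio was 3230 without vehicle replicate 1, on 2 Thrb counts, and 795 without replicate 3.

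**Figure D3:**
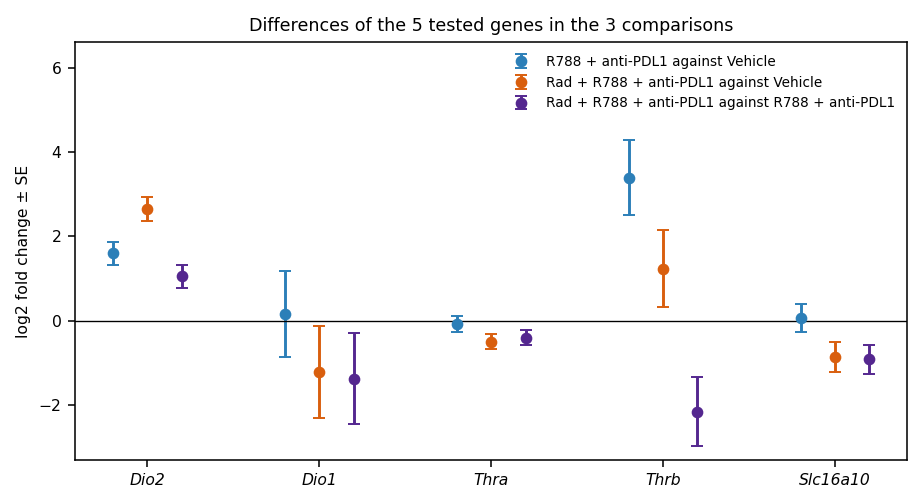
Log2 fold change with its SE (vertical axis) of the 5 tested members in the 3 comparisons, a color per comparison. Dio2 lies above 0 in all 3 (1.60, 2.65 and 1.05), Thra and Slc16a10 lie near 0 after R788 + anti-PDL1 and below 0 in both comparisons with irradiated tumors, and the widest bars are those of Dio1 and Thrb.

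With Dio1, Dio2 and Thrb set aside, Thra and Slc16a10 were not called in any comparison (edgeR quasi-likelihood test, Benjamini-Hochberg over all genes). Across all genes, edgeR called 0.678% between R788 + anti-PDL1 and vehicle and 0.0439% between irradiated tumors and vehicle. An unadjusted p under 0.05 was reached by none of them in the first of these and by Thra and Slc16a10 in the second and between the treated groups, against 11.7%, 13.2% and 18.4% of all genes. Groups overlapped for Thra and Slc16a10 in the first comparison. In the second they did not overlap for Thra and overlapped for Slc16a10. Of all genes, 30.1% and 20.5% did not overlap. Dio2 in both comparisons and Thrb in the first did not overlap either, and Dio1 overlapped in both. These members are not set against the shares of all genes.

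No receptor partner passed the test. All 13 retinoid X receptors, corepressors and coactivators on the list were tested. Their median log2 fold change was -0.15 after R788 + anti-PDL1 and -0.31 after Rad + R788 + anti-PDL1 against vehicle, beside -0.02 and 0.05 for all genes. The second median was -0.08 without irradiated replicate 1. The corepressor Ncor1 (62.2 to 267 CPM) and the corepressor subunit Tbl1x (31.2 to 187 CPM) were both lowest in irradiated replicate 1. Tbl1xr1, which helps exchange corepressors for coactivators, had 74.1 to 106 CPM in vehicle and 28.0 to 55.8 CPM in irradiated tumors (log2 fold change -0.97 ± 0.28, adjusted p = 0.25). Rxrg, a retinoid X receptor with no more than 1.33 CPM, had the highest log2 fold change of the list in that comparison, 0.54 ± 0.74.

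Dio2 protein is short-lived because it is ubiquitinated, and 4 genes of that step were tested with no call. Wsb1, the substrate adaptor of a ubiquitin ligase for Dio2, had 98.4, 164 and 141 CPM in vehicle tumors, 82.6, 80.3 and 75.9 CPM after R788 + anti-PDL1, and 53.9, 70.5 and 77.0 CPM after Rad + R788 + anti-PDL1. Both treated groups lay below vehicle with no overlap, as 30.1% and 20.5% of all genes did not overlap in these comparisons. A link between Wsb1 and Dio2 was not tested. The log2 fold changes were -0.76 ± 0.23 (adjusted p = 0.203) and -1.0 ± 0.23 (adjusted p = 0.158). None of 13 alternative fits called Wsb1 after R788 + anti-PDL1 (adjusted p from 0.0533, with DESeq2, to 0.617). In irradiated tumors 12 of 13 left Wsb1 uncalled (adjusted p up to 0.622) and DESeq2 alone called it (0.00475). DESeq2 called more genes than edgeR in both comparisons. The other ligase gene, March6, had 82.0 to 150 CPM and log2 fold changes of 0.11 ± 0.19 and -0.31 ± 0.19. Of the deubiquitinases that rescue Dio2, Usp33 had -0.63 ± 0.22 (adjusted p = 0.307) and Usp20 had 0.38 ± 0.17 (adjusted p = 0.373) in irradiated tumors against vehicle.

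Selenoprotein synthesis showed no called gene. The 6 selenocysteine insertion factors had median log2 fold changes of -0.04 and 0.05 against vehicle, and 18 of 20 other selenoproteins that could be tested had medians of -0.19 and 0.37. The second of these became -0.10 without irradiated replicate 1. In that library Selenom, an endoplasmic reticulum selenoprotein, reached 252 CPM against 33.2 to 75.4 CPM elsewhere, and the lipid peroxidase Gpx4 reached 431 CPM against 99.1 to 187 CPM. Txnrd1, thioredoxin reductase, had the lowest value against vehicle in irradiated tumors, -0.86 ± 0.26 (adjusted p = 0.267). Gpx3, an extracellular peroxidase, had the highest after R788 + anti-PDL1, 1.81 ± 0.73 (adjusted p = 0.371).

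**Figure D4:**
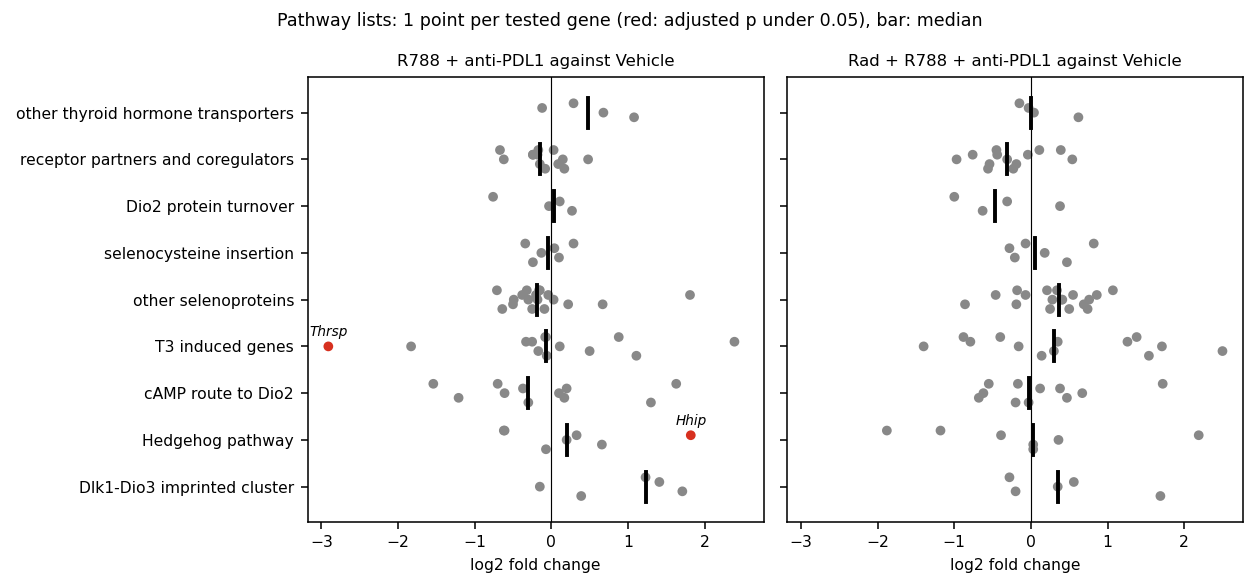
Log2 fold change against vehicle (horizontal axes) of the tested genes of 9 lists around thyroid hormone action, R788 + anti-PDL1 on the left and Rad + R788 + anti-PDL1 on the right, with a point per gene and a bar at the list's median. The only genes with an adjusted p under 0.05 (red) are Thrsp, at -2.91, and Hhip, at 1.82, both in the left panel.

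Genes known to be induced by T3 in liver, heart, brain or fat gave a single call against vehicle. Of 16 on the list 13 were tested. Against vehicle the median log2 fold change was -0.07 after R788 + anti-PDL1 and 0.30 after Rad + R788 + anti-PDL1, beside -0.02 and 0.05 for all genes. The call was a lower level of Thrsp after R788 + anti-PDL1, where 0.678% of all genes were called and 0.289% were called lower. Thrsp, a lipogenic T3 target of liver and fat, had 8.56, 19.1 and 16.9 CPM in vehicle tumors, 1.54, 2.45 and 1.93 CPM after R788 + anti-PDL1, and 8.41, 4.62 and 3.88 CPM after Rad + R788 + anti-PDL1. Thrsp fell by 2.91 ± 0.44 on the log2 scale after R788 + anti-PDL1 (adjusted p = 0.0383), with no overlap. In irradiated tumors its log2 fold change was -1.40 ± 0.42 (adjusted p = 0.265). The call after R788 + anti-PDL1 was kept without vehicle replicate 1 (adjusted p = 0.0292) and lost without each of the other 5 libraries in turn (0.0661 to 0.216). It was also lost with the replicate number as a block. Of 13 alternative fits, 7 kept the call of Thrsp and 6 lost it, while the log2 fold change stayed between -3.16 and -2.69.

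Other T3 targets had values on both sides of 0. The general T3 target Klf9 had 59.0 to 88.8 CPM in vehicle tumors and log2 fold changes of -0.07 ± 0.57 and -0.40 ± 0.57, with irradiated replicate 1 at 11.0 CPM, and the second was 0.11 ± 0.21 without that library. The lipogenic enzymes Fasn (521 to 1490 CPM) and Me1 (90.3 to 217 CPM) had log2 fold changes between -0.17 and 0.30, and Acaca had -0.08 ± 0.40 and -0.88 ± 0.40. The calcium pump Atp2a2, a cardiac target, had 0.11 ± 0.37 and -0.16 ± 0.37, the second 0.24 ± 0.13 without irradiated replicate 1. The highest value in irradiated tumors was 2.50 ± 0.76 for Myh6 (adjusted p = 0.265), the cardiac myosin heavy chain, which reached 12.8 CPM in irradiated replicate 1 and 0.763 to 4.62 CPM elsewhere. Without that library Myh6 had 1.42 ± 0.60 and the highest value was 1.92 ± 0.78 for Mbp, a myelin protein gene. The Mbp value rested on irradiated replicate 3, at 5.25 CPM against 0.609 CPM in replicate 2 and 0.674 to 0.883 CPM in vehicle tumors. Ucp1, the target through which Dio2 acts in brown fat, was at 0 in all libraries.

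The cyclic AMP route that induces Dio2 in brown fat gave no call among 11 tested genes. Median log2 fold changes were -0.30 and -0.03 against vehicle. Of its immediate targets, the nuclear receptor Nr4a1 had -1.54 ± 0.40 (adjusted p = 0.138) and the repressor gene Crem -1.21 ± 0.26 (adjusted p = 0.0838) after R788 + anti-PDL1, and the clock gene Per1 had -0.70 ± 0.28 (adjusted p = 0.361), with 101 to 155 CPM against 153 to 253 CPM in vehicle.

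Hedgehog signaling, which induces Wsb1 in cartilage, had 7 tested genes of 10. Hhip, a membrane protein that binds and blocks Hedgehog ligands and is itself a Hedgehog target, was called. Its values were 4.09, 4.13 and 3.62 CPM in vehicle tumors, 16.8, 9.10 and 15.9 CPM after R788 + anti-PDL1, and 22.6, 14.6 and 16.9 CPM after Rad + R788 + anti-PDL1. Hhip rose by 1.82 ± 0.31 after R788 + anti-PDL1 (adjusted p = 0.0397), where 0.678% of all genes were called and 0.389% were called higher. These groups did not overlap for Hhip, as for 30.1% of all genes. The irradiated tumors also did not overlap vehicle, at 2.19 ± 0.31 (adjusted p = 0.0605, and 0.0362 without replicate 1). The call after R788 + anti-PDL1 was kept without R788 + anti-PDL1 replicate 2 and lost without each of the other 5 libraries in turn (adjusted p from 0.0804 to 0.225). It was also lost in limma-voom (0.0703) and with the replicate number as a block. Of 13 alternative fits, 6 kept the call of Hhip and 7 lost it. Of the pathway's other targets, Ptch1 had 0.33 ± 0.27 and -0.39 ± 0.27 and Gli1 had -0.07 ± 0.37 and 0.03 ± 0.37. The median of the list was 0.20 and 0.03, beside -0.02 and 0.05 for all genes, and the second was 0.31 without irradiated replicate 1. The ligand gene Shh was at 0 throughout.

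The genes whose pattern over the 9 libraries was most like that of Dio2 were Met, Cav1, Cav2, Lnx1 and Kcnab2. Pearson's r of log2 CPM was 0.98, 0.971, 0.968, 0.955 and 0.939, among 10717 genes with a mean of at least 5 CPM. These are descriptive values, since the points share their groups and library sizes. Met, the hepatocyte growth factor receptor, had 0.110 to 0.822 CPM in vehicle tumors, 2.18 to 7.67 CPM after R788 + anti-PDL1 and 21.8 to 32.1 CPM after Rad + R788 + anti-PDL1. Cav1, a coat protein of caveolae, had 4.36 to 6.41, 16.4 to 20.8 and 30.9 to 67.3 CPM in the same order, and its partner Cav2 had 2.34 to 3.12, 9.57 to 12.9 and 18.5 to 32.2 CPM. Without irradiated replicate 1, Met stayed first (r = 0.985) and was the only gene shared with the former 5, followed by Gng11, Gtf2ird2, Vim and Wdr3. Among the members, r with Dio2 was -0.597 for Thra and -0.42 for Slc16a10.

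**Figure D5:**
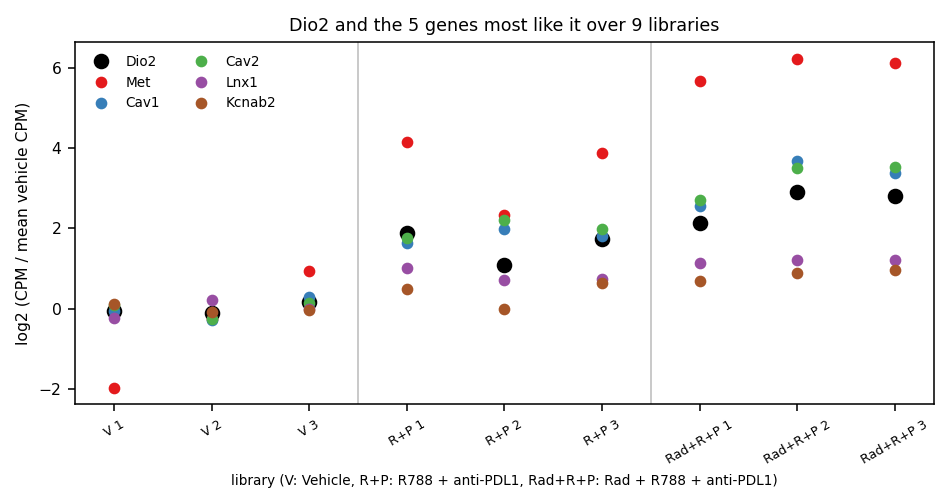
Log2 ratio of CPM to the mean vehicle CPM (vertical axis) of Dio2 and the 5 genes most like it in each of the 9 libraries (horizontal axis), with lines between groups. Met has the widest range, Cav1 and Cav2 lie close to Dio2, and Lnx1 and Kcnab2 follow the same order with smaller differences.

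None of the tested genes next to Dio2 on chromosome 12 was called. The noncoding gene Gm26512 overlaps the 5′ end of Dio2 on the other strand by 100 exonic bases, and with unknown strandedness its reads may be confused with those of Dio2. It had only 0.110 to 2.94 CPM, with log2 fold changes of 1.86 ± 0.89 and 2.10 ± 0.89 against vehicle (adjusted p = 0.474 and 0.365). On one side Cep128, a centriole gene 260.0 kb away, had 0.11 ± 0.31 and -0.50 ± 0.31, and Gtf2a1, a general transcription factor gene 817 kb away, had 0.13 ± 0.22 and -0.39 ± 0.22. Ston2, an endocytosis gene 895 kb away, had 3.18 to 13.6 CPM in vehicle tumors, 16.1 to 27.8 CPM after R788 + anti-PDL1 and 5.83 to 26.8 CPM after Rad + R788 + anti-PDL1, with log2 fold changes of 1.61 ± 0.66 and 1.49 ± 0.66 (adjusted p = 0.384 and 0.378). On the other side the nearest tested genes, Adck1, Snw1 and Slirp, lay 2260 to 3270 kb away, with log2 fold changes between -0.37 and 1.46 against vehicle. The highest was that of Slirp in irradiated tumors, at 235 CPM in replicate 1 against 42.6 and 48.9 CPM in the other two, and it was 0.24 ± 0.35 without that library.

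Cell types in which Dio2 is known were looked for by their markers. Of brown fat markers Ucp1 was at 0 in all libraries and the list summed to 1.64 to 4.80, 1.15 to 3.92 and 1.73 to 9.74 CPM in the vehicle, R788 + anti-PDL1 and irradiated groups. Of glial markers the water channel Aqp4 was at 0 and Gfap did not exceed 1.37 CPM, and the list summed to 12.6 to 19.4, 23.2 to 41.3 and 11.1 to 22.7 CPM. Skeletal muscle markers summed to 7.67 to 8.89, 6.07 to 9.22 and 8.54 to 27.3 CPM. These 3 sums overlapped between vehicle and irradiated tumors, whereas the glial sum was higher after R788 + anti-PDL1 than in vehicle with no overlap. Fibroblast markers (2510.0 to 5370.0 CPM), adipocyte markers (11.2 to 44.2 CPM), smooth muscle and pericyte markers (94.9 to 220.0 CPM) and endothelial markers (30.4 to 106 CPM) overlapped between all groups. Macrophage markers summed to 126 to 226 CPM in vehicle tumors, 275 to 281 CPM after R788 + anti-PDL1 and 141 to 813 CPM in irradiated tumors.

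Other marker lists did move with the groups. Thyroid follicular markers summed to 0.773 to 1.75, 1.81 to 1.97 and 4.89 to 8.19 CPM, in the same order as Dio2. The nearest sums of vehicle and R788 + anti-PDL1 tumors were 1.75 and 1.81 CPM. The defining follicular genes Pax8 and Foxe1 were at 0 in all libraries. In irradiated tumors most of the sum was Iyd (4.11 to 7.67 CPM), the enzyme that salvages iodide from iodotyrosines. Iyd had 7, 12 and 6 counts in vehicle tumors, 11, 24 and 27 after R788 + anti-PDL1, and 104, 88 and 90 after Rad + R788 + anti-PDL1. The log2 fold change was 3.67 ± 0.52 in irradiated tumors against vehicle, or 3.36 ± 0.50 without replicate 1. Iyd passed the low-count filter only through the treated groups, so its differences from vehicle are given with no p. Of the 11 follicular markers 2 were tested, and the other, Slc5a5, went the opposite way. Its means were 0.652, 0.490 and 0.255 CPM in the vehicle, R788 + anti-PDL1 and irradiated groups, with a log2 fold change of -1.31 in irradiated tumors against vehicle. The neuroblast list summed to 490.0 to 613, 622 to 696 and 622 to 968 CPM. Its developmental factor Isl1 was at 0 in vehicle, with 80, 48 and 63 counts after R788 + anti-PDL1 and 14, 27 and 21 in irradiated tumors. Isl1 passed the low-count filter only through the treated groups, so its differences from vehicle are given with no p. With Isl1 and Iyd set aside, no gene of the 12 marker lists was called with all 9 libraries. Gata3, another factor on the neuroblast list, had 11.4, 0.180 and 3.01 CPM in vehicle tumors and 0.306 to 0.661 CPM after R788 + anti-PDL1, a log2 fold change of -3.48 ± 1.08 (adjusted p = 0.227). Erythroid markers summed to 201 to 625 CPM in vehicle tumors, 58.2 to 109 CPM after R788 + anti-PDL1 and 48.9 to 183 CPM in irradiated tumors. Keratinocyte markers, most of them Krt5, summed to 4.94 to 7.73, 1.90 to 63.3 and 46.6 to 75.2 CPM, whereas Krt14 had 0.221 to 2.36 CPM in vehicle tumors, 0 after R788 + anti-PDL1 and at most 0.101 CPM in irradiated tumors. The part of these cell types in the Dio2 values was not tested.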

How the data were processed

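RNA-seq was analysed for 9 whole NB9464 tumors, 3 per treatment label. Per the methods and labels, the authors aligned reads to mm10 with STAR 2.6.1d and quantified them with Salmon 1.4.0 in a bcbio pipeline, and the deposited table holds estimated counts per symbol as whole numbers without normalization. Strandedness and annotation were not given in the sources used here. The labels name a NovaSeq paired-end run, the methods a single-read HiSeq run. Genes were filtered with filterByExpr (minimum count 10), normalized by TMM and fitted over all 9 libraries with edgeR 4.0.16 (R 4.3.3; robust quasi-likelihood F test, two-sided, Benjamini-Hochberg threshold 0.05). The study used DESeq2, run here as an alternative (1.42.0) beside limma-voom (limma 3.58.1), RLE normalization, other filters, only the 6 libraries compared, a replicate block and leaving out each library. Identifiers, lengths and positions come from GENCODE M21 (GRCm38), which matched 53739 symbols to a single identifier, 112 to several and 578 to none. Levels between genes are compared as CPM per kb of exon. Named genes were all members, and from each list its called genes, its extremes and its 3 most abundant genes, with the genes most like Dio2 by Pearson's r of log2 CPM (prior count 2) and its nearest tested neighbors. Ratios per kb and the Slco2b1 mean without single libraries were added after seeing the data. Some genes that the rule selects are not reported here. Some list genes outside this rule are named for contrast or as defining markers. The members and lists were chosen with earlier results of these data known.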

Additional observations from a re-analysis of the deposited data

How the results depend on the processing

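Of 113 alternative values of the log2 fold changes of Dio1, Thra and Slc16a10, 106 kept their direction and side of the threshold and 7 changed sign. Dio1 is counted here although it passed the low-count filter only with its R788 + anti-PDL1 libraries. Dio2, with no test, ranged from 1.44 to 1.80 and from 2.50 to 2.88 against vehicle and from 0.846 to 1.25 between the treated groups (1.05 with DESeq2). Thrb, which passed the filter through its high group, ranged from 2.83 to 4.83 after R788 + anti-PDL1 (3.47 with DESeq2). Sign changes came from leaving out single libraries. After R788 + anti-PDL1 the range over left-out libraries was -0.34 to 2.53 for Dio1, including -0.339 and -0.267, -0.113 to 0.321 for Slc16a10, including -0.0805, and -0.154 to 0.00795 for Thra. For Dio1 in irradiated tumors against vehicle it was -2.17 to 1.13.

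The number of genes called after R788 + anti-PDL1 against vehicle was 108 in edgeR, 770 with DESeq2, 199 with no low-count filter, 594 with only the 6 libraries compared, and 0 to 75 with a library left out. In edgeR it was 0 on omitting vehicle replicate 2 or 3 (1446 and 1247 genes at an unadjusted p under 0.05), and likewise on omitting replicate 1 or 3 of R788 + anti-PDL1 (1513 and 1171 genes). For Rad + R788 + anti-PDL1 against vehicle the 7 calls became 611, 70, 1 and 1 to 57 in the same order. Between the treated groups the single call became 822, 24, 0 (1908 unadjusted) and 0 to 21, and 8 with limma-voom. With the replicate number as a block, edgeR called 0, 3 and 0 genes in the 3 comparisons, with 1775, 1949 and 2789 at an unadjusted p under 0.05, and Thrsp and Hhip each had an adjusted p of 0.0733 in the first. The deviations of same-numbered libraries correlated between -0.0463 and 0.233 and not every library correlated best with its own number, so the numbers were not taken to pair the samples.

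In an alternative chosen after seeing the data, leaving out irradiated replicate 1 changed the sign of list medians. Against vehicle they went from 0.05 to -0.03 for selenocysteine insertion, 0.37 to -0.10 for other selenoproteins, -0.03 to 0.07 for the cyclic AMP route, 1.16 to -0.14 for the 1 tested brown fat marker, 0.67 to -0.01 for skeletal muscle, -0.24 to 0.01 for glia and 3.53 to -0.70 for keratinocytes, where Krt14 then also passed the filter. Between the treated groups they went from -0.26 to 0.01 for receptor partners, 0.72 to -0.59 for brown fat and 0.23 to -0.60 for erythroid markers. Depth limits Dio3, Slco1c1 and, in most libraries, Thrb and Dio1, whose counts are too low for small differences to be seen.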
